A study of Mus musculus and Bos taurus with 6 samples.

Results

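The mouse Sox9 gene and the gene desert upstream of it were examined in a list of genomic regions bound by the SOX9 protein in fetal testis. Members were the regions (peaks) on chromosome 11 whose midpoint lies between positions 110900000 and 112900000 of the mm9 build. This window of 2 Mb runs from 1.74 Mb before the start of Sox9 to 0.257 Mb after it. The gene is read on the plus strand, and its start was taken at 112643000, a position given to about 1 kb. The window held 2 of the 6419 peaks of the mouse list and 2 of the 552 peaks of chromosome 11.

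The study profiled SOX9 by chromatin immunoprecipitation and sequencing (ChIP-seq) in fetal testis of mouse and cattle, in 6 libraries. Only the mouse data were used here. They comprise 2 libraries immunoprecipitated with a rabbit antibody against SOX9 and 1 input library of chromatin DNA that was not immunoprecipitated. All 3 came from testes of swiss OF1 mice at E13.5, a stage shortly after testis cords form. The labels give no mutation, transgene or treatment for any of them. Whole gonads were crushed and cross-linked with disuccinimidyl glutarate and then formaldehyde, so the chromatin came from every cell type of the organ, and how many gonads went into a library is not given in the sources used here. A single peak list stands for the 3 libraries together. It carries positions and widths but no read counts, so the spread between the SOX9 libraries and the depth behind a peak are unknown.

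SOX9 is a transcription factor with a DNA-binding HMG box. In the fetal gonad of XY embryos, SRY raises Sox9 transcription in supporting cells, and SOX9 then maintains its own gene and directs these cells to become Sertoli cells. Sox9 is also used in cartilage and many other tissues, and its enhancers are scattered over a long stretch without other well-known genes. The best known testis enhancers of the mouse gene lie upstream: TES, with its core TESCO, close to the gene, and Enh13, far out in the desert. Earlier work placed SOX9 itself on TESCO, so that the factor is known to act on its own gene.

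Both peaks of the window lay at the gene itself. The first ran from 112643525 to 112644533 on chromosome 11 (mm9) and was 1009 bp wide. Its first base was 525 bp and its last base 1533 bp after the given start, and its midpoint was 1028.5 bp after it. The second ran from 112644833 to 112647122 and was 2290 bp wide, from 1833 to 4122 bp after the start. Both thus lay on the transcribed side of the given start, in the first 4.12 kb. A start placed 1 kb later would fall inside the first peak, so whether that peak covers the promoter cannot be told from this position. Exons, introns and untranslated regions of Sox9 in mm9 were not used here, and the peaks were not assigned to them.

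No peak was listed in the upstream desert. The 1.74 Mb of the window before the start held 0 peaks, and the stretch without a peak went on beyond the window. The nearest listed peak upstream ended 2.40 Mb before the first Sox9 peak, at 110241854, and was 768 bp wide. In the other direction the nearest peak began at 113480000 and was 774 bp wide, 833 kb after the end of the second Sox9 peak. It was followed by peaks with midpoints 868 kb and 903 kb after the start. Within 1 Mb of the start there were 0 peaks upstream and 6 downstream, the Sox9 pair included. Within 5 Mb there were 11 upstream and 39 downstream. Sox9 thus stood between an empty side and a side on which binding resumed within 1 Mb.

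**Figure D1:**
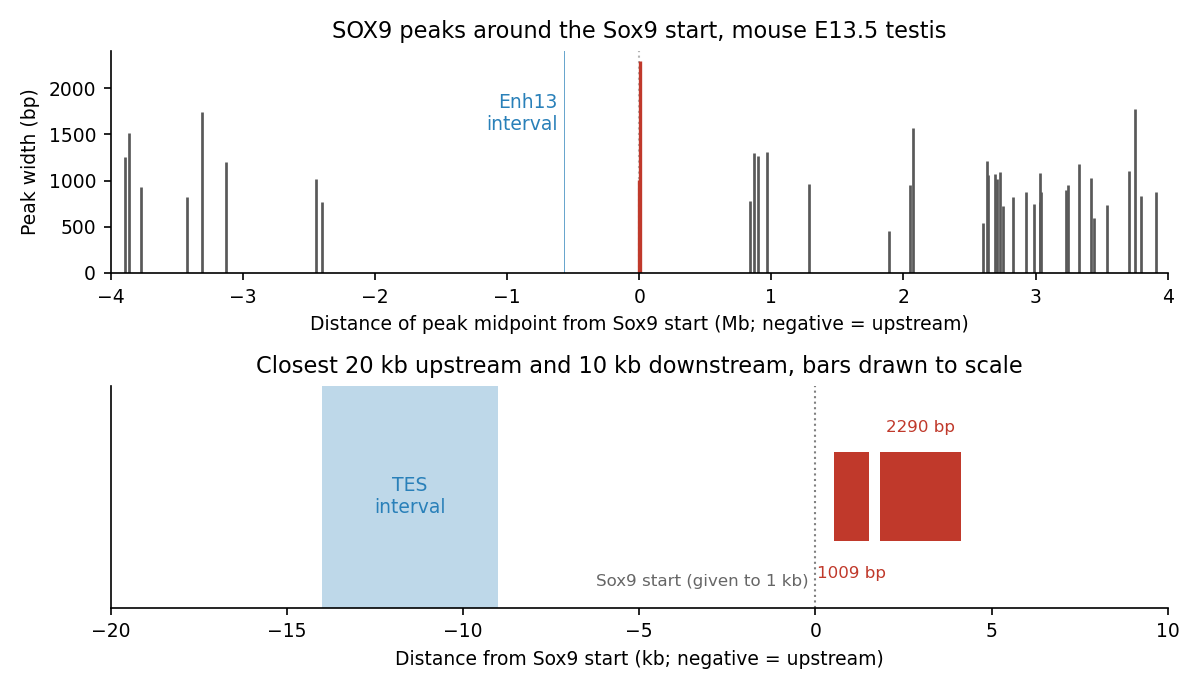
SOX9 peaks around the start of Sox9 on chromosome 11. The upper panel shows each peak as a line at its midpoint, with distance in Mb on the x axis and width in bp on the y axis, and the lower panel draws the 2 Sox9 peaks (red) to scale in kb. Blue marks the intervals searched for the enhancers Enh13 and TES, which hold 0 peaks, and the 2.40 Mb before the gene are empty.

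The intervals of both testis enhancers held 0 listed peaks. For TES, the interval from 9 to 14 kb upstream of the start was searched, and the nearest peak was the first Sox9 peak, 9.52 kb from its edge. For Enh13, the interval from 560 to 570 kb upstream was searched, and the nearest peak was again the one at the gene, 561 kb away. These distances come from general knowledge of the mouse locus, rounded, and not from the deposited data. When chromosome 11 was scanned in steps of 1 kb, 2.71% of stretches of 5 kb and 4.84% of stretches of 10 kb contained a peak. These stretches were taken along the whole chromosome, so their shares give no expectation for a known enhancer. A list without a peak at a site does not show that SOX9 was absent from it, because heights and the calling threshold were not used here and a weaker signal would not be listed.

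The start of Sox9 lay much closer to a peak than most positions of chromosome 11. No other gene start was compared, so whether Sox9 differs from other genes in this was not tested. Positions spaced 1 kb apart along the chromosome had a median distance of 110 kb to the nearest peak midpoint. Of these 118399 positions, 0.946% were within 1028.5 bp of one. That distance would be 2028.5 or 28.5 bp with a start 1 kb earlier or later. The count of 2 peaks within 10 kb was reached by 0.815% of positions, and the same count within 100 kb by 24.9%. Within 500 kb, the same 2 peaks stood against a median of 4, and 40.3% of positions had as few or fewer. Within 2 Mb on either side, Sox9 had 8 peaks against a median of 16, and 27.9% of positions had as few or fewer. Within 1 Mb it had 6 against a median of 8, and 44.1% had as few or fewer. Within 5 Mb it had 50 against a median of 46, and 56.5% had as few or fewer. The count was thus above the median position within 10 and 100 kb and below it within 500 kb, 1 Mb and 2 Mb. Within 5 Mb it was close to the median. These shares describe the chromosome and carry no test, since neighbouring positions share their peaks.

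Counted by windows laid out from the Sox9 window, this region was among the emptier parts of a densely bound chromosome. The window was placed over the gene and its desert, with 1.74 Mb of it before the start. Windows were not matched for gene content. The count was 2, where an even spread of the 552 peaks would give 9.32 per 2 Mb. The exact 95% Poisson interval of 0.242 to 7.22 covers counting error only. It treats peaks as independent, though these 2 lay 299 bp apart, and no test against the even spread was made. Chromosome 11 was divided into 60 windows of 2 Mb laid out from the Sox9 window. Their median was 8 peaks (quartiles 3 and 13, range 0 to 35). Of the 60 windows, 49 held more than 2 peaks, 2 held exactly 2 with the Sox9 window among them, 6 held 1 and 3 held 0. The Sox9 window was therefore among the 18.3% of windows with 2 peaks or fewer. The exact 95% binomial interval is 9.52% to 30.4%, for counting error only. It treats the 60 windows as independent draws, although they make up the whole chromosome between its outermost peaks. Most of the other sparse windows lay far from Sox9: 8 of these 10 began between 70 and 102 Mb upstream of the Sox9 window, 1 began 56 Mb upstream and 1 began 20 Mb upstream.

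**Figure D2:**
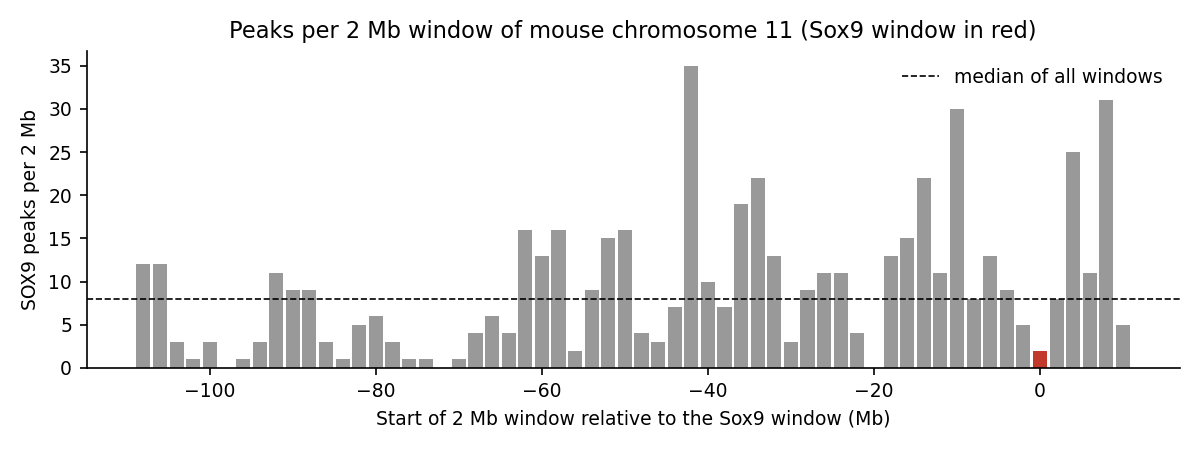
Number of SOX9 peaks in each of the 60 windows of 2 Mb on mouse chromosome 11. The x axis gives the start of each window relative to the Sox9 window in Mb, bars are counts and the dashed line is the median of 8. The Sox9 window (red) holds 2 peaks, between windows of 5 and 8.

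The windows next to it were fuller. The 2 Mb before it held 5 peaks and the 2 Mb after it held 8, and the windows one step further held 9 and 25. The low count depended on where the window was cut. In windows set from the start of the chromosome, the one with the Sox9 start held 7 peaks, because it took in the peaks beyond 833 kb downstream, and 48.3% of windows held as few or fewer. Over 18 autosomes, where peaks were thinner and the median window held 4, 32.8% of 1163 windows had 2 peaks or fewer.

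The gap between the first Sox9 peak and the nearest peak upstream, which reaches beyond the window, was the fifth longest stretch without a peak on chromosome 11. Its 2.40 Mb compare with a median of 87.9 kb over the 551 gaps between neighbouring peaks of the chromosome (quartiles 30.5 and 214 kb). The 4 longer gaps measured 5.18, 5.07, 3.20 and 2.44 Mb. Over the autosomes, 148 of 6384 gaps were longer, so that 2.33% of gaps were at least as long. The downstream gap of 833 kb ranked 28 of 551 on chromosome 11. Assembly gaps and sequence to which reads cannot be mapped were not used here, and their part in these lengths was not tested.

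The genes on either side of Sox9 were read from gene order. In the RefSeq annotation of the GRCm38.p6 build, which was used for names and order only, the first named coding gene upstream of Sox9 was Kcnj2, followed by Kcnj16, both of which encode inwardly rectifying potassium channels. Next upstream came Map2k6, a kinase that activates p38. Between Kcnj2 and Sox9 the annotation lists 7 genes: 5 long non-coding RNAs (Gm30158, Gm30219, Gm30337, Gm39461 and BC006965), 1 pseudogene (Gm11675) and 1 coding gene model (Gm11677). Downstream, 9 long non-coding RNAs and no coding gene separate Sox9 from Slc39a11, a zinc transporter. Sstr2, a somatostatin receptor, Cog1, a subunit of a Golgi tethering complex, and Fam104a come after it. Which of these genes lie inside the gaps or nearest the flanking peaks was not analysed here, since their positions are in another build than the peaks.

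The second Sox9 peak was one of the widest of its chromosome. On chromosome 11, 2 of the 552 peaks were wider, with 3535 and 2426 bp, and in the whole list 61 of 6419 were. It was thus wider than 99.6% of the other peaks of chromosome 11 and 99.0% of the other peaks of the list. It belongs to the 16 peaks over 2000 bp on chromosome 11. The first Sox9 peak was of ordinary size. Its 1009 bp stood close to the median of 941 bp on chromosome 11 (quartiles 726 and 1225 bp) and of 953 bp in the list, and 55.9% of the other peaks of chromosome 11 were narrower. The second peak was 2.27 times as wide as the first.

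The 2 peaks were separated by 299 bp and form an adjoining pair, the term used here for 2 peaks less than 500 bp apart with no other peak joined to them at that distance. Chromosome 11 held 12 such pairs. On the autosomes, 204 regions were made of more than 1 peak joined in this way, of which 197 were pairs and the others held more peaks. In these 197 pairs the wider peak had a median of 954 bp and the narrower one of 684 bp. Both Sox9 peaks were above these medians. A wider peak of at least 2290 bp occurred in 4 of the 197 pairs, Sox9 included, and a narrower peak of at least 1009 bp in 15. The ratio of 2.27 between both widths was reached or exceeded by 17 pairs, against a median ratio of 1.36. The gap of 299 bp was on the long side, with a median of 118 bp over the 197 pairs and 34 pairs at least as far apart.

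**Figure D3:**
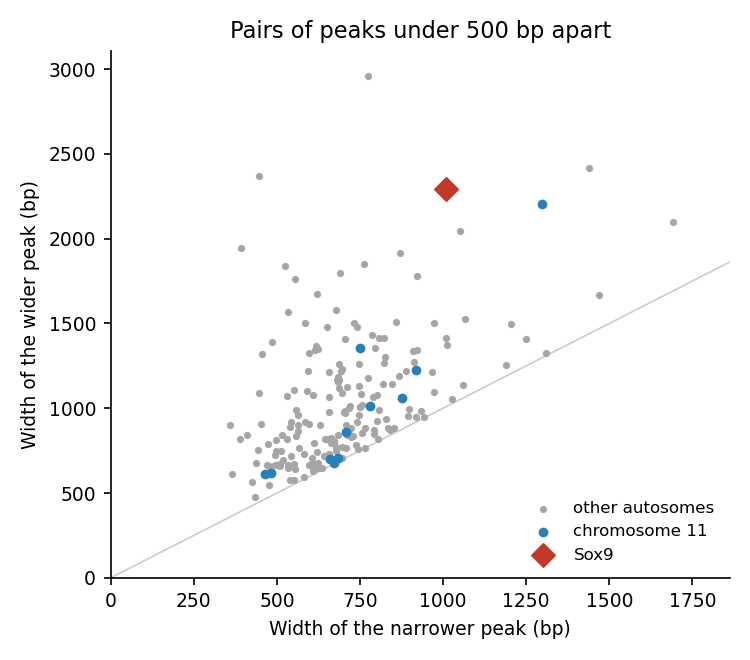
Widths of both peaks in the 197 autosomal pairs of SOX9 peaks less than 500 bp apart, without regions of more than 2 peaks. The x axis gives the narrower and the y axis the wider peak in bp, each point is a pair, and the line marks equal widths. The Sox9 pair (red diamond, 1009 and 2290 bp) lies above the medians of 684 and 954 bp.

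Joined across their gap, the Sox9 peaks spanned 3598 bp, of which 3299 bp were covered by peaks. When all peaks less than 500 bp apart were joined, the autosomes held 6191 regions with a median width of 983 bp. Of these, 8 were wider than the Sox9 region. On chromosome 11, 1 of 540 regions was wider, a pair from 95865673 to 95869487 that spanned 3815 bp. That pair had another region within 26.3 kb, whereas the Sox9 region had none within 833 kb.

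The Sox9 region combined great width with a long distance from other binding. Over the autosomes, the median distance to the nearest other region was 73.6 kb, and 157 regions (2.54%) were at least as isolated as Sox9. These 157 regions had a median width of 1109 bp and ran from 383 to 3598 bp, so that the Sox9 region was the widest of them. This rank rests on its joined span. A single peak of 2356 bp, 1285 kb from its nearest region, was wider than either Sox9 peak alone. Of these 157, 9 were made of more than 1 peak, Sox9 included. Over all 6191 regions, 204 (3.30%) were. The most isolated of these 9, on chromosome 14 (94288575 to 94291055), spanned 2481 bp and lay 4.28 Mb from its nearest neighbour. On chromosome 11, 7 of 540 regions were as isolated, and the other 6 were single peaks of 398 to 1297 bp, all between positions 25000005 and 47802860. Width and isolation were compared here after their values had been seen, and no test was made.

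**Figure D4:**
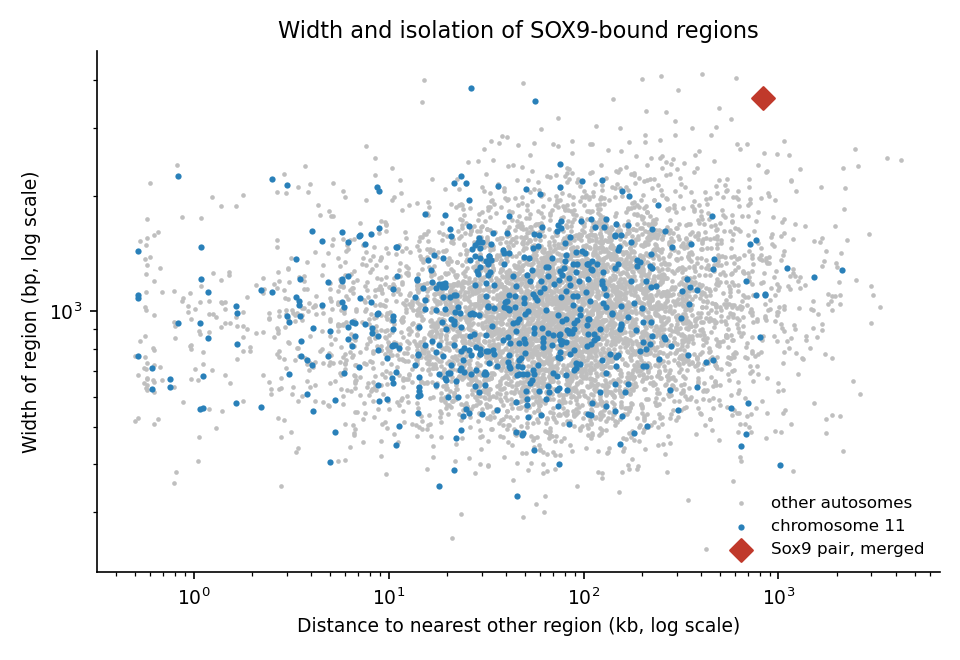
Width of each SOX9-bound region of the 18 listed mouse autosomes against its distance to the nearest other region. Both are on log scales, after joining peaks less than 500 bp apart. Grey points are regions of other autosomes, blue points those of chromosome 11 and the red diamond is the Sox9 region at 3598 bp and 833 kb. By its joined span it is the widest of the 157 regions at least that isolated.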

How the data were processed

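Peaks were taken from the mouse list as the authors deposited it, with 1 line per peak and no header. Besides chromosome, start and end, the deposited list holds 1 other value, the width in bp, which equalled end minus start in all 6419 lines. Of the genome builds in the submitters' processing notes, mm9 is the mouse one and was taken for this list. How reads were aligned, how and at what threshold peaks were called, and how both SOX9 libraries and the input entered the list is not given in the sources used here. Starts are printed counted from 1. Peaks were assigned to windows by their midpoint, and a window was counted where it overlapped the stretch between the outermost peaks of its chromosome. Gaps are edge to edge. The list covers 18 autosomes and the X, which is not every mouse autosome, and values over the autosomes refer to these 18. All peaks of the window were to be named if they were 30 or fewer; other regions were singled out once their values were known. The window and the comparisons were chosen with earlier results of these data known. The planned promoter sequence and the positions of neighbouring genes were not analysed here, for want of a sequence or annotation of mm9. No test across samples was possible, since 1 list stands for all libraries. The counting steps were tested on simulated peaks. Python 3.11.15, pandas 2.3.3, numpy 2.4.6 and scipy 1.17.1 were used.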

Additional observations from a re-analysis of the deposited data

How the results depend on the processing

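Of 14 alternative values, 5 stayed close to the reported one and 9 moved. For the share of windows, close meant inside the binomial interval given above. The rule differed between results, so this tally does not measure how robust they are. Joining peaks less than 500 bp apart turned the 2 peaks of the window into 1, raised the median width from 1649.5 to 3598 bp and the median distance to the nearest peak from 299 to 832877 bp, as its construction requires. The share of 2 Mb windows with as few peaks as the Sox9 window was 18.3%, 20.7% in overlapping windows and 16.7% after joining. It was 48.3% in windows set from the start of the chromosome, 36.7% among the widest 50% of peaks, where fewer peaks are counted, and 32.8% over the autosomes, an alternative chosen after seeing the data. The nearest peak midpoint lay 1028.5 bp from the given start, its edge 525 bp, and the midpoint 2028.5 or 28.5 bp from a start 1 kb earlier or later. Widths upstream of the start alone gave no value, since no peak lies there. No paired analysis was possible because the 2 SOX9 libraries share 1 list without values per library, which also prevents leaving out either library. Depth is unknown, so the list does not show which sites were too weakly covered to be called.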
